A study of Mus musculus with 3 samples.

Results

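Granulocyte precursors with high transcript levels of the neutrophil serine proteases Elane and Prtn3 were examined in newborn mouse liver, in CD45-positive cells captured as single-cell libraries. A cell was taken as a member when Elane and Prtn3 together reached at least 5000 CPM, that is, unique molecular identifiers (UMIs) per 1000000 UMIs of its own barcode. Barcodes that also held at least 2 UMIs each of Cd34 and Irf8, which mark earlier progenitors and the monocyte and dendritic branch, were barred. The rule found 1160 members among 25845 barcodes, or 4.49%. The members were chosen by their own Elane, Prtn3, Cd34 and Irf8 values, so those levels describe the selection and are not findings.

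The KO library came from pex2-/- mice, the library labelled Het from pex2-/+ mice and the library labelled WT from pex2+/+ mice, all at postnatal day 0. There was 1 library per genotype, and the sources used here do not say how many animals each holds. Livers were strained, cleared of most hepatocytes by slow centrifugation, lysed for red cells, and sorted for viable CD45-positive cells, which were fixed and read with gene-specific probes. The values therefore compare the probed part of each transcript. With 1 library per group no difference has a replicate check, no test was made, and every interval covers counting error only. In sums over all members of a library, fewer cells of a type and less RNA per cell cannot be told apart. Shares of cells and levels within parts of the set are therefore given as well.

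Pex2, which encodes a peroxisomal membrane ubiquitin ligase, had 0 UMIs in KO members, 68.2 CPM in the library labelled Het and 28.3 CPM in that labelled WT. Against a floor of 3 counts over the library's members, Pex2 was at least 348-fold lower in KO than in labelled Het and at least 144-fold lower than in labelled WT. The order of labelled Het and labelled WT goes against their labels, since the heterozygous library had 2.41 times the level of the wild-type one, and both are named by their labels throughout. The sources used here do not say whether the probes lie in the deleted part of the gene. The Y-linked gene Ddx3y had 0 UMIs in KO and in labelled Het members and 99.1 CPM in labelled WT members, so sex and genotype cannot be told apart in comparisons with labelled WT. Total UMIs were 186295183 in KO, 144589956 in labelled Het and 96629431 in labelled WT, and members held a median of 43073, 32568 and 19292 UMIs each in that order. No full barcode was shared between libraries, and the first 16 bases, which mark the droplet in this multiplexed assay, were shared by 1 to 3 members per pair of libraries.

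Promyelocytes are the granulocyte precursors that make primary (azurophil) granules, packed with myeloperoxidase and with the serine proteases elastase, proteinase 3 and cathepsin G. As they become myelocytes, transcription of these genes stops and that of secondary granule proteins such as lactoferrin (Ltf) and cathelicidin (Camp) begins, while cell division goes on until the metamyelocyte stage. In late fetal and newborn mice the liver is still a site of blood formation. PEX2 takes part in the import of enzymes into peroxisomes, the organelles that oxidise very long chain fatty acids and make ether lipids, and cells without it lack working peroxisomes.

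The 6 markers set for promyelocyte-like cells were present in members of every library. Mpo, which encodes myeloperoxidase, had at least 1 UMI in 100% of members in each library. In B-lineage-like barcodes the share was 15.8% in KO, 32.0% in labelled Het and 38.9% in labelled WT. Ctsg, which encodes cathepsin G, had a UMI in 95.6% of KO, 90.6% of labelled Het and 89.1% of labelled WT members, against 4.14%, 6.80% and 6.90% of B-lineage-like barcodes of the same libraries. Ms4a3, a marker of granulocyte and monocyte progenitors, had a UMI in 99.4%, 99.0% and 94.0% of members, against 3.93%, 5.71% and 4.01% of B-lineage-like barcodes. Gfi1, a repressor needed for neutrophil formation, had a UMI in 63.2%, 74.5% and 67.6% of members, against 19.7%, 23.1% and 19.1%. B-lineage-like barcodes, taken as cells that should lack Mpo, Ctsg and Ms4a3, were shallower, with medians of 5946, 7916 and 4454 UMIs. Whether B-lineage cells themselves hold Gfi1 transcripts was not tested. Apart from the genes of the rule, the genes with the highest members-over-rest ratios were Mpo, at least 17.5-fold in every library, Ctsg, at least 16.4-fold, Ms4a3, at least 13.4-fold, and the granule serine protease Prss57, at least 8.68-fold.

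Markers of other cell types were low but not absent. The sum of 12 B-lineage genes was 62.7 CPM in KO, 72.6 in labelled Het and 166 in labelled WT members. The sum of 12 macrophage genes was 255, 284 and 255 CPM in the same order. Eosinophil genes summed to 93.3, 315 and 230 CPM over all members and to 501, 1022 and 856 CPM in members with neither monocyte nor later granule marks, and 1, 2 and 2 members had Epx, the eosinophil peroxidase, at 1000 CPM or more. Erythroid genes summed to 6.5, 5.7 and 4.9 CPM with Hba-a1 at 0, and NK and T cell genes to 2.2, 1.9 and 2.3 CPM with Ncr1, Eomes, Cd3e, Klrd1 and Cd8a at 0. Basophil and mast cell genes summed to 130, 120 and 142 CPM with Fcer1a and Cma1 at 0, plasmacytoid dendritic genes to 51.3, 87.6 and 89.1 CPM, conventional dendritic genes to 2.88, 5.11 and 8.20 CPM and hepatocyte genes to 4.38, 1.75 and 2.20 CPM. Scrublet called 7, 4 and 10 members doublets.

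The members formed a gradient rather than a uniform stage. Elane plus Prtn3 had a median of 10227 CPM per member in KO, 20309 CPM in labelled Het and 22554 CPM in labelled WT. KO members thus lay nearer the threshold: 48.8% of them were between 5000 and 10000 CPM, against 23.5% in labelled Het and 20.3% in labelled WT. At 20000 CPM and over, the shares were 17.8% in KO, 50.7% in labelled Het and 54.1% in labelled WT. Just inside the threshold, between 5000 and 6000 CPM, lay 46 KO, 29 labelled Het and 21 labelled WT barcodes. Just outside, between 4000 and 5000 CPM, lay 55, 38 and 29.

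Members also spanned 3 ranges of other lineage genes. Monocyte-marked members, with Irf8, Csf1r, Ly86 and Klf4 together at 200 CPM or more, made up 29.8% of KO members (102 cells; 95% Clopper-Pearson interval 25 to 35.0), 10.9% of labelled Het members (44 cells; 8.03 to 14.3) and 20.5% of labelled WT members (85 cells; 16.7 to 24.7). Later granule-stage members, without those marks and with Ltf plus Camp at 5000 CPM or more, made up 57.3% (196 cells), 62.6% (253 cells) and 56.8% (235 cells). Members of neither class, closest to promyelocytes by these genes, made up 12.9% (44 cells), 26.5% (107 cells) and 22.7% (94 cells). Irf8 is also a gene of the rule, whose clause bars barcodes with UMIs of both Cd34 and Irf8. The monocyte-marked shares thus describe the selection in part. These classes are ranges and not cell types: 6, 26 and 46 members lay between 100 and 400 CPM of the monocyte genes, and 37, 52 and 53 between 2500 and 10000 CPM of Ltf plus Camp. The data thus go against a single promyelocyte label for the whole set, and the set is called Elane/Prtn3-high cells here.

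The class of neither mark had the highest primary granule content. Its median Elane plus Prtn3 per cell was 26875 CPM in KO, 42852 in labelled Het and 46775 in labelled WT, and its median Mpo was 41201, 48581 and 54725 CPM. In monocyte-marked members the median Mpo per cell was 5512, 12763 and 17657 CPM, and in later granule-stage members it was 11063, 13639 and 13244 CPM. In the later granule-stage class the median of Ltf plus Camp per cell was 22386, 27630 and 34692 CPM, against 741, 599 and 1452 CPM in the class of neither mark. B-lineage-like barcodes had a median Camp of 181, 281 and 919 CPM. The part of free RNA in the Ltf plus Camp level of the class of neither mark was not tested.

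**Figure D1:**
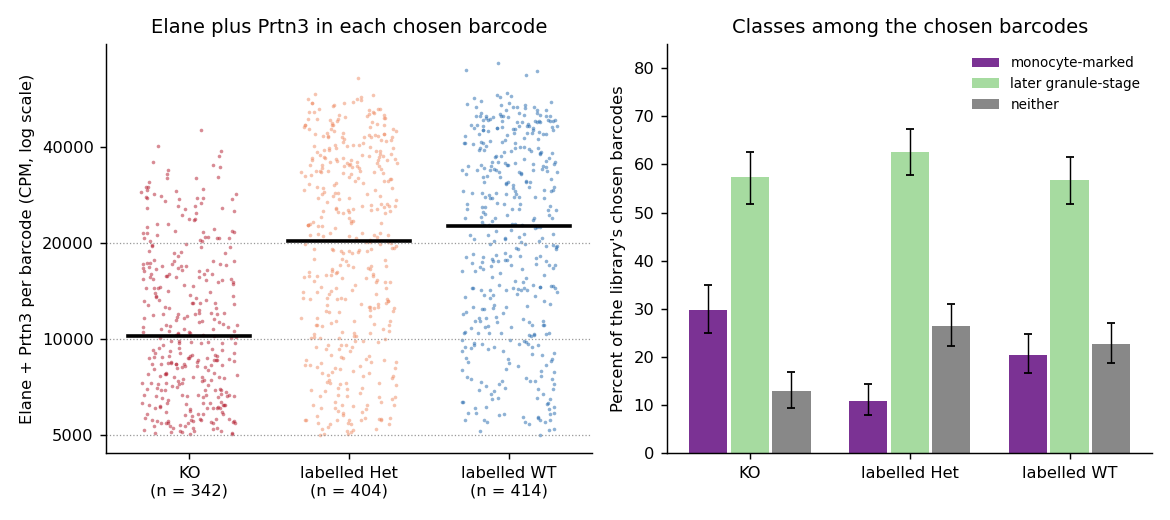
Left: Elane plus Prtn3 per member in CPM on a log axis, with 1 point per member, black bars at the medians and dotted lines at 5000, 10000 and 20000 CPM. Right: percent of members in each of the 3 classes with 95% Clopper-Pearson intervals. KO members lie lower, with a median of 10227 CPM against 20309 and 22554, and 29.8% of them are monocyte-marked against 10.9% and 20.5%. Elane, Prtn3 and Irf8 are genes of the rule that chose the members.

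Elane/Prtn3-high cells made up 4.15% of barcodes in KO (342 of 8245; 3.73 to 4.60), 5.05% in labelled Het (404 of 8000; 4.58 to 5.55) and 4.31% in labelled WT (414 of 9600; 3.91 to 4.74). The KO share was 0.821 times that of labelled Het (0.709 to 0.951) and 0.962 times that of labelled WT (0.831 to 1.11), and labelled Het over labelled WT was 1.17 (1.02 to 1.35). The ratio followed the threshold: at 10000 CPM it was 0.550 against labelled Het and 0.617 against labelled WT, and at 2500 CPM it was 0.987 and 1.18. Barred cells with Cd34 and Irf8 numbered 105, 138 and 134. That clause counts UMIs and so bars more cells in a deeper library. When barcodes were first thinned to 5000 UMIs and shallower ones left out, which kept 7487 of 8245 KO, 7254 of 8000 labelled Het and 7491 of 9600 labelled WT barcodes, the ratios were 0.823 and 0.899. Those ratios therefore rest on unequal parts of the libraries.

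Differences in expression between the libraries were described with a rule of size. UMIs were summed over the members of each library and given as CPM, and a gene was called when KO was at least 1.5-fold above or below both other libraries, with both 95% intervals of the ratio excluding 1. Of 7032 genes with a mean of at least 20 CPM, 345 were higher in KO, or 4.91%, and 567 were lower, or 8.06%. Counts of called genes in each list below are to be read beside these shares. The same rule called 23 genes higher in labelled Het (0.327%) and 36 lower (0.512%), and 120 genes higher in labelled WT (1.71%) and 182 lower (2.59%). Of the KO calls 37.8% were higher, against 52.2% with TMM scaling (477 higher and 437 lower) and 52.3% with median-of-ratios scaling (482 and 439). Of all genes tested, 39.4% lay above both other libraries in KO and 43.2% below both, by any amount. The median log2 ratio over all genes was -0.02 against both libraries. It was 0.09 against labelled WT with TMM scaling, so small differences hold only relative to the other genes. KO and the other libraries differ in depth and in the mix of classes besides genotype. With barcodes thinned to 5000 UMIs before the rule, 436 genes were higher and 630 lower. With the same mix of classes, added after seeing the data and without the condition on intervals, 233 were higher and 519 lower. The part of depth and of the mix in these calls was not tested.

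**Figure D2:**
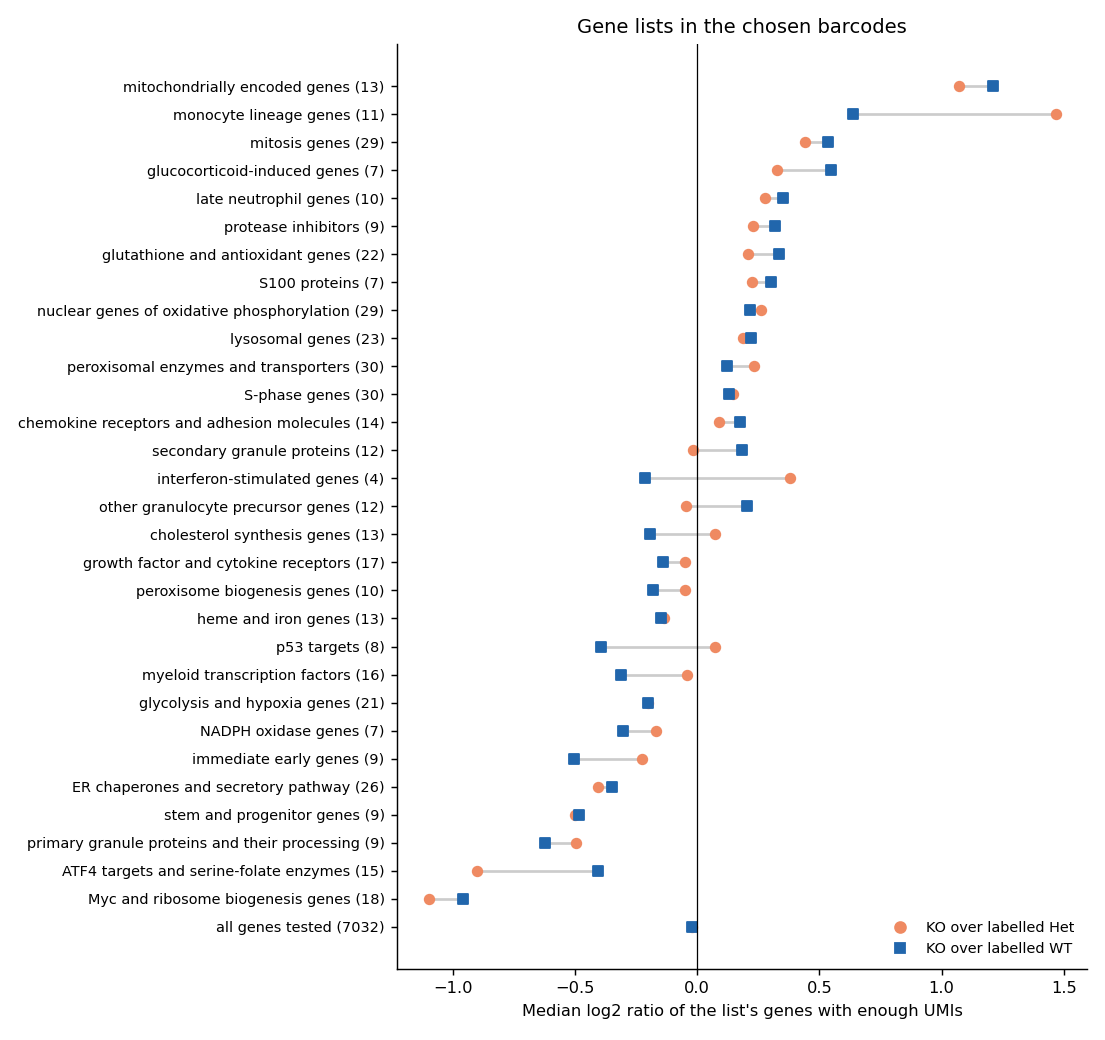
Median log2 ratio of KO over labelled Het (circles) and over labelled WT (squares) for each gene list, with the number of genes that had enough UMIs in parentheses. Monocyte lineage (1.47 and 0.64) and mitochondrially encoded genes (1.07 and 1.21) lie farthest to the right, and Myc and ribosome biogenesis genes (-1.10 and -0.96) farthest to the left, while all genes lie at -0.02 and -0.02.

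Primary granule genes were lower in KO members. Of 9 genes for granule proteins and their processing, 4 were lower by the rule of size and 0 higher, but 2 of these, Elane and Prtn3, chose the members. Of the other 7 genes 2 were lower, Mpo and Prss57, with medians of -0.48 against labelled Het and -0.53 against labelled WT. Elane was at 6416 CPM in KO, 13746 in labelled Het and 13680 in labelled WT, and Prtn3 at 7142, 10808 and 12585 CPM. Both are genes of the rule, and their lower level restates that KO members lie nearer the threshold. Mpo was at 15597 CPM in KO, 25572 in labelled Het and 27916 in labelled WT, 1.64-fold and 1.79-fold lower in KO. Prss57, which lies near Elane and Prtn3 on chromosome 10, was at 272, 465 and 560 CPM. Ctsg was at 2377 CPM in KO, 3354 in labelled Het and 3325 in labelled WT, which was under the fold the rule asks for.

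The promoters of 3 of the genes called lower are shown because their products fill the granules that define this stage. They are the 250 bases before the start given by RefSeq (build GRCm38.p6), all on the plus strand, and capitals mark GAGGAA, the core of the box bound by the myeloid factor PU.1, searched on both strands. The windows are chr10:79886062-79886311 for Elane, chr10:79879417-79879666 for Prtn3 and chr11:87793534-87793783 for Mpo.
Elane: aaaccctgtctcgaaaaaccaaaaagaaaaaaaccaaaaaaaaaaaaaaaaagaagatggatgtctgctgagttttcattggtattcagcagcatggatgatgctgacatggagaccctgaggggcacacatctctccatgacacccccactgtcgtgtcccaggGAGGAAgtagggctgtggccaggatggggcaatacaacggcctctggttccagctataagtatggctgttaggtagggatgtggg
Prtn3: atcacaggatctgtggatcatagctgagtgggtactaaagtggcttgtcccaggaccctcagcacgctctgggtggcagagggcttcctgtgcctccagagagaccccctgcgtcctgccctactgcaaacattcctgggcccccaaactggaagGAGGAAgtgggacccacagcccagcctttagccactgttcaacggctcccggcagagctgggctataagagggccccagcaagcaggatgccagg
Mpo: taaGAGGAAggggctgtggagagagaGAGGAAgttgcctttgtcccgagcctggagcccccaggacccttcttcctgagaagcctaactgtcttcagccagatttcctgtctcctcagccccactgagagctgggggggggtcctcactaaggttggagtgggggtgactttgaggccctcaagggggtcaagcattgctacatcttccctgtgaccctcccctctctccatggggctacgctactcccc
Counted from 1 at the 5′ end, the core starts at base 166 in Elane, at base 156 in Prtn3 and at bases 4 and 27 in Mpo. It is present in 3 of 3 of the called granule genes with a window, against 23.3% of 32851 windows of this length. A match is a description of letters, not of binding. Elane and Prtn3 are genes of the rule that chose the members, and granule genes that were not called were not counted apart. The count of windows with the core therefore says nothing about the lower level in KO. Spi1, which encodes PU.1, was at 721 CPM in KO, 631 in labelled Het and 486 in labelled WT, a gene picked after its values were seen.

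Within bands of Elane plus Prtn3 the granule genes behaved differently from one another. In members at 20000 CPM and over, Mpo was at 36180 CPM in KO, 39031 in labelled Het and 42545 in labelled WT. In the same band Ctsg was at 7462, 5673 and 5472 CPM, so here KO was the highest. Between 10000 and 20000 CPM, Ctsg was at 1821 CPM in KO, 1025 in labelled Het and 723 in labelled WT, and between 5000 and 10000 CPM at 509, 187 and 308 CPM. Ctsg was thus higher in KO in every band and lower over all members. The medians of all 9 genes were 0.12 and -0.07 in the lowest band, 0.04 and 0.00 in the middle band, and -0.11 and -0.30 in the highest. In the class of neither mark, Mpo was at 38019 CPM in KO, 48053 in labelled Het and 53749 in labelled WT, and Ctsg at 8807, 8637 and 8763 CPM.

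Other genes of granulocyte precursors went both ways. Of 12 genes, 1 was higher in KO and 3 were lower, with medians of -0.04 and 0.20, the first of which was 0.02 with TMM scaling. Nkg7, a membrane protein of cytotoxic granules, was at 164 CPM in KO, 585 in labelled Het and 783 in labelled WT, 3.57-fold and 4.78-fold lower in KO. It was lower in KO in each of the 3 classes, and in the class of neither mark it stood at 460, 1174 and 1523 CPM. After thinning to 5000 UMIs, 32.5% of KO, 69.5% of labelled Het and 73.3% of labelled WT members had an Nkg7 UMI, against 0.78%, 1.23% and 2.75% of B-lineage-like barcodes, and unthinned shares of members were 65.2%, 86.6% and 84.5%.

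Fcnb, a ficolin stored in neutrophil granules that binds microbial sugars, was at 2197 CPM in KO, 6103 in labelled Het and 8009 in labelled WT. It was 2.78-fold and 3.65-fold lower in KO, and in the 20000 CPM band it stood at 2070, 6156 and 7993 CPM. Gfi1 was at 109 CPM in KO, 179 in labelled Het and 260 in labelled WT. With the same mix of bands in every library, the log2 ratio of Gfi1 against labelled Het was 0.014. Clec12a, an inhibitory lectin receptor of myeloid cells, was higher in KO at 606 CPM, against 275 in labelled Het and 375 in labelled WT. Ms4a3 was at 1229 CPM in KO, 1068 in labelled Het and 913 in labelled WT, and in the class of neither mark at 2793, 1771 and 1686 CPM.

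**Figure D3:**
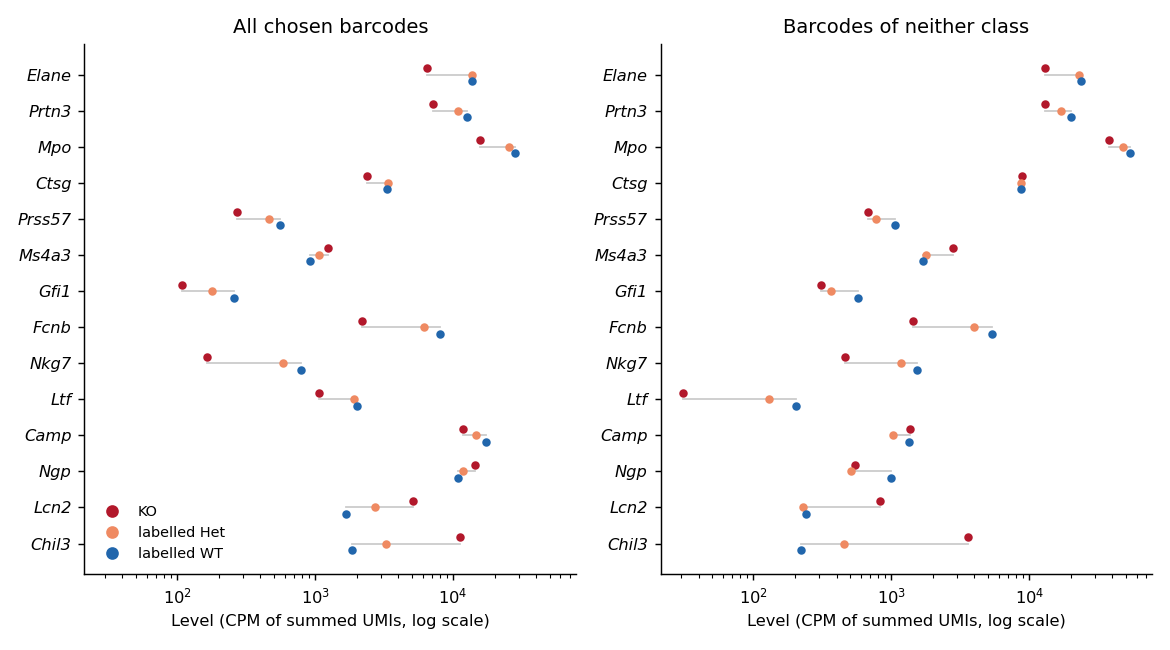
Level of 14 granule and precursor genes in CPM of summed UMIs on a log axis, over all members (left) and over members of neither class (right), with 1 point per library. Nkg7 is lowest in KO in both panels (164 and 460 CPM) and Chil3 highest in KO in both (11196 and 3568 CPM), while the 3 Ctsg points of the right panel lie between 8637 and 8807 CPM.

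Among 16 myeloid transcription factors, 0 were higher in KO and 3 were lower, against 4.91% and 8.06% of all genes. Cebpb, a C/EBP factor of stress granulopoiesis and of monocytes, was at 405 CPM in KO, 627 in labelled Het and 852 in labelled WT. Cebpd, its relative, was at 307, 461 and 599 CPM. Gfi1, given above, was the other. Cebpe, the factor that drives secondary granule genes, was at 833 CPM in KO, 875 in labelled Het and 781 in labelled WT and met no call. The list medians were -0.04 and -0.31, and the first was 0.02 with TMM scaling.

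Of 9 stem and progenitor genes, 1 was higher in KO and 2 were lower. Kit, the stem cell factor receptor, was at 52.5 CPM in KO, 90.0 in labelled Het and 99.4 in labelled WT. Cbfa2t3, a corepressor of blood progenitors, was at 15.5, 42.8 and 76.9 CPM. Cd48, a surface protein of committed progenitors and leukocytes, was higher in KO at 41.6 CPM, against 22.4 and 25.7 CPM, and without monocyte-marked members its log2 ratios were -0.068 and -0.075. The list medians of -0.50 and -0.48 were 0.02 and 0.19 with the same mix of bands.

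Secondary granule genes showed no shared direction. Of 12 genes, 3 were higher in KO and 1 was lower, with medians of -0.02 and 0.18, the first of which was 0.05 with TMM scaling. Chil3, a chitinase-like lectin of neutrophil precursors and macrophages, was at 11196 CPM in KO, 3250 in labelled Het and 1848 in labelled WT, 3.44-fold and 6.06-fold higher in KO. Its counts are uncertain where near-identical copies share probes. Chil3 was highest in KO in each class, with 3568, 454 and 220 CPM in the class of neither mark. Lcn2, the iron-siderophore binding protein lipocalin 2, was at 5104 CPM in KO, 2715 in labelled Het and 1675 in labelled WT, and in the class of neither mark at 823, 229 and 240 CPM. Orm1, an acute-phase protein, was at 49.0, 23.5 and 15.9 CPM.

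Ltf, which encodes lactoferrin, was the gene called lower, at 1058 CPM in KO, 1925 in labelled Het and 2001 in labelled WT. Camp was at 11808, 14530 and 17381 CPM and Ngp, a neutrophil granule protein of the cathelicidin family, at 14520, 11768 and 10862 CPM, and neither met the rule. Summed over B-lineage-like barcodes, which should lack these genes, Ltf was at 2251 CPM in KO, 2680 in labelled Het and 3023 in labelled WT. These sums were above its level in members of each library, but the median per such barcode was 0, 138 and 292 CPM. The part of free RNA in the call on Ltf was not tested. Summed over those barcodes, Lcn2 was at 4415, 2476 and 1988 CPM and Chil3 at 3953, 1246 and 856 CPM, the same order of libraries as in the members. The medians per such barcode were 297, 228 and 275 CPM for Lcn2, another order, and 183, 91.8 and 0 CPM for Chil3. The part of free RNA in both calls was not tested.

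Of 10 late neutrophil genes, 2 were higher in KO and 3 were lower, with medians of 0.28 and 0.35. In the class of neither mark the medians were 0.11 and 0.12 over the same genes, and -0.37 and -0.60 over those that reach 20 CPM within the class. Fpr2, a receptor for formylated peptides, was at 205 CPM in KO, 97.0 in labelled Het and 71.8 in labelled WT. Il1r2, which captures interleukin 1 without signalling, stood at 108, 62.4 and 35.0 CPM. Retnlg, a resistin-like protein of mature neutrophils, was lower at 117 CPM in KO, against 244 in labelled Het and 430 in labelled WT. G0s2, an inhibitor of triglyceride lipase, was at 36.1, 99.7 and 104 CPM. Mmp9, the gelatinase of tertiary granules, was at 26, 46.0 and 121 CPM, and with the threshold at 2500 CPM its log2 ratio against labelled Het was 0.058.

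Monocyte lineage genes were higher in KO members as a whole. Of 11 genes 6 were higher by the rule, against 4.91% of all genes, and 0 lower. The medians were 1.47 and 0.64, and labelled Het itself lay below labelled WT with a median of -0.93. This list holds Irf8, Csf1r, Ly86 and Klf4, which set the monocyte-marked class, so its totals follow the share of that class. Irf8 is in the rule too, and without the Cd34 and Irf8 clause the median against labelled Het was 0.60. Over the other 7 genes the medians were 1.47 and 1.26, with 5 higher. Over the same 11 genes the medians were 0.19 and 0.40 in monocyte-marked members, -0.05 and -0.37 in later granule-stage members and 0.74 and 0.37 in the class of neither mark. Without monocyte-marked members 4 genes still had enough UMIs, with medians of 0.041 and 0.021. Fn1, which encodes fibronectin, was at 776 CPM in KO, 88.5 in labelled Het and 171 in labelled WT, 8.76-fold and 4.53-fold higher in KO. Within the monocyte-marked class Fn1 was at 2762 CPM in KO, 823 in labelled Het and 820 in labelled WT.

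Tgfbi, an extracellular matrix protein of monocytes and macrophages, stood at 170 CPM in KO, 41.8 in labelled Het and 42.1 in labelled WT. In the monocyte-marked class Tgfbi was at 551, 232 and 131 CPM, and in later granule-stage members at 25.4, 24.8 and 25.4 CPM. F13a1, the coagulation factor XIII subunit of monocytes, was at 1059 CPM in KO, 405 in labelled Het and 441 in labelled WT, and it was highest in KO in each class. Mpeg1, a pore-forming protein of phagocytes, was at 501, 262 and 322 CPM, and its log2 ratios were -0.14 and -0.19 without monocyte-marked members. After thinning, 26.9% of KO, 5.25% of labelled Het and 12.6% of labelled WT members had an Fn1 UMI (unthinned 40.6%, 17.1% and 20.8%), against 9.5%, 5.68% and 10.9% of B-lineage-like barcodes. The members with an Fn1 UMI were mostly monocyte-marked: after thinning the share was 81.4%, 44.2% and 54.3% in that class, against 3.06%, 1.59% and 2.16% in later granule-stage members and 4.55%, 0% and 4.30% in the class of neither mark. Summed over B-lineage-like barcodes Fn1 was at 437 CPM in KO, 62.5 in labelled Het and 106 in labelled WT, the same order of libraries as in the members. The median per such barcode was 0 CPM in each library, and the part of free RNA was not tested.

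Genes of mitosis were higher in KO members. Of 29 genes 9 were higher by the rule, against 4.91% of all genes, and 0 lower. Of the 29 genes, 25 were above both other libraries, against 39.4% of all genes, with medians of 0.44 and 0.54. Mki67, which coats chromosomes in division, was at 695 CPM in KO, 404 in labelled Het and 272 in labelled WT. Ccnb2, a cyclin of the entry into mitosis, was at 278, 152 and 133 CPM. Nuf2, which attaches chromosomes to the spindle, was at 96.9, 50.0 and 38.2 CPM, and Bub1, a spindle checkpoint kinase, at 50.7, 26.3 and 18.7 CPM. Top2a, which untangles DNA for chromosome segregation, stood at 334, 288 and 280 CPM and met no call. Medians were 0.53 and 0.48 in monocyte-marked members, 0.13 and 0.44 in later granule-stage members and 0.49 and 0.44 in the class of neither mark. In bands of rising Elane plus Prtn3 they were 0.39 and 0.07, -0.004 and 0.10, and 0.21 and 0.58, so the middle band showed little difference. In granule-stage cells outside the set, with Ltf plus Camp at 5000 CPM or more and Elane plus Prtn3 below it, they were 0.16 and 0.53.

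Thinning to 5000 UMIs kept the order for Mki67, with a UMI in 88.9% of KO, 70.5% of labelled Het and 60.5% of labelled WT members (unthinned 99.7%, 95.05% and 86.5%). The 95% intervals were 85.1 to 92.0, 65.8 to 74.9 and 55.6 to 65.3, and each covers counting error within 1 library only. In B-lineage-like barcodes, which also divide, the share after thinning was 34.6%, 65.0% and 75.3%. Thinning left out 320 of 962 KO, 307 of 1364 labelled Het and 1122 of 2032 labelled WT barcodes there. Unthinned shares were 30.1%, 58.1% and 47.9%, so KO was lowest both ways and the order of the other libraries changed with thinning. Mitosis genes together gave a median of 16, 9 and 8 UMIs per thinned member. Of 30 S-phase genes 2 were higher in KO and 1 was lower, with medians of 0.15 and 0.13, and they gave a median of 36, 30 and 33 UMIs. Ccne1, the cyclin of the entry into S phase, was at 90.5 CPM in KO, 48.7 in labelled Het and 38.3 in labelled WT. Dtl, which marks replication proteins for degradation, was at 113, 75.1 and 54.0 CPM. Ung, which removes uracil from DNA, was lower at 31.3, 55.9 and 77.8 CPM.

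Genes of Myc and of ribosome biogenesis were lower in KO members. Of 18 genes 12 were lower by the rule, against 8.06% of all genes, 0 were higher, and all 18 were below both other libraries, against 43.2% of all genes, with medians of -1.10 and -0.96. Myc, the growth-promoting transcription factor, was at 123 CPM in KO, 518 in labelled Het and 297 in labelled WT. Srm, the spermidine synthase, was at 24.3, 113 and 102 CPM, 4.63-fold and 4.21-fold lower in KO. Gnl3, the nucleolar protein nucleostemin, was at 17.2, 63.3 and 62.9 CPM, Nop56, a core protein of small nucleolar particles, at 71.8, 191 and 170 CPM, and Ddx21, a nucleolar helicase, at 85.4, 217 and 175 CPM. Npm1, the abundant nucleolar chaperone, was at 370, 486 and 563 CPM and did not meet the fold.

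The lower level of this list was present in each class of members. Its medians were -1.20 and -1.11 in monocyte-marked members, -1.23 and -0.72 in later granule-stage members and -0.83 and -0.65 in those of neither mark. In bands of rising Elane plus Prtn3 they were -0.46 and -0.70, -1.06 and -0.59, and -0.75 and -0.63. Outside the set, granule-stage cells had medians of -0.92 and -0.79 and barred cells -1.04 and -0.90, so the difference was of like size in the neighbouring cells. Of the 12 genes called lower, 9 had a promoter window, and 0 of these held the E box CACGTG, which 6.02% of all windows hold.

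Ccnd2, the D-type cyclin of myeloid and lymphoid progenitors, ranked among the leading lower genes at 15.2 CPM in KO, 86.5 in labelled Het and 84.1 in labelled WT. In the class of neither mark it was at 85.2, 245 and 221 CPM. After thinning, 4.39% of KO, 23.0% of labelled Het and 21.7% of labelled WT members had a Ccnd2 UMI (unthinned 17.8%, 41.8% and 36.2%), against 24%, 21.7% and 22.5% of B-lineage-like barcodes, a lineage known to express this cyclin. Nop2 and Bysl, both of ribosome assembly, were also among the leading lower genes, Nop2 at 21.3, 80.7 and 104 CPM and Bysl at 15, 56.1 and 69.6 CPM.

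Targets of ATF4, the transcription factor of the amino acid response, were lower in KO members with the enzymes that feed serine into folate metabolism. Of 15 genes 7 were lower by the rule, against 8.06% of all genes, and 0 higher, with medians of -0.90 and -0.41. Atf4 itself was at 23.0 CPM in KO, 76.7 in labelled Het and 76.8 in labelled WT. Slc7a5, the large neutral amino acid transporter, was at 55.2, 208 and 145 CPM and its partner chain Slc3a2 at 84.8, 166 and 153 CPM. Atf5, a related factor, was at 20.6, 88.7 and 65.9 CPM, and Stc2, the secreted stanniocalcin 2, at 9.02, 68.5 and 30.9 CPM. Shmt2, the mitochondrial serine hydroxymethyltransferase, was at 114, 214 and 229 CPM.

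The libraries labelled Het and WT differed from each other in this list, with a median of 0.40. Mthfd2, a mitochondrial folate enzyme picked after its values were seen, was at 66.4 CPM in KO, 175 in labelled Het and 63.8 in labelled WT, so it was high in labelled Het alone. List medians in the class of neither mark were -1.27 and -0.62, and in granule-stage cells outside the set -0.92 and -0.35. The amino acid response core, TGATG and AA with 1 base between them, was in 0 of the 6 called genes with a window, and in 3.45% of all windows.

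Chaperones of the endoplasmic reticulum, where granule proteins are folded, were lower in KO over all members. Of 26 genes 6 were lower by the rule, against 8.06% of all genes, and 0 were higher. Of the 26 genes, 19 were below both libraries, against 43.2% of all genes, with medians of -0.41 and -0.35. Hspa5, the ER chaperone BiP, was at 152 CPM in KO, 300 in labelled Het and 229 in labelled WT, and Calr, which encodes calreticulin, at 197, 367 and 317 CPM. Hyou1, an ER chaperone of the heat shock protein family, was at 90.1, 223 and 190 CPM. Pdia4, a disulfide isomerase, was at 110, 215 and 186 CPM, and Creld2, a secreted ER stress protein, at 37.3, 80.4 and 60.1 CPM.

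This difference followed the band: medians were 0.11 and 0.10 at 5000 to 10000 CPM, -0.14 and 0.09 at 10000 to 20000 CPM, and -0.33 and -0.28 at 20000 CPM and over. In the class of neither mark they were -0.47 and -0.42, with Hspa5 at 319 CPM in KO, 562 in labelled Het and 424 in labelled WT.

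Promoters of 3 of these genes hold the ER stress element, CCAAT followed after 9 bases by CCACG, in either direction, and are printed because the element is rare. It is in 3 of 5 called genes with a window, against 0.113% of all windows (37 of 32851). Genes of the same list that were not called were not counted apart, so this count says nothing about the lower level in KO. The windows of 250 bases before the RefSeq start (GRCm38.p6) are chr2:34771840-34772089 on the plus strand for Hspa5, chr8:84846932-84847181 on the minus strand for Calr and chr15:88819396-88819645 on the plus strand for Creld2, and capitals mark the element with its inner bases.
Hspa5: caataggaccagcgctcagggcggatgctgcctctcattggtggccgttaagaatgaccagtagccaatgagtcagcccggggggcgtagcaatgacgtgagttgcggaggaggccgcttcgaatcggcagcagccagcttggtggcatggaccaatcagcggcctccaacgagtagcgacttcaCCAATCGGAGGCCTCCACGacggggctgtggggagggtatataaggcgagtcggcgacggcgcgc
Calr: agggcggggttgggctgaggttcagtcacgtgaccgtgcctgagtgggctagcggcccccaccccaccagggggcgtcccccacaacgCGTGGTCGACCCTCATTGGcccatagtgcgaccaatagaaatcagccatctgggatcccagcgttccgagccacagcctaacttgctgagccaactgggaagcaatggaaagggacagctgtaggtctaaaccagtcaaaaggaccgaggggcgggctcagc
Creld2: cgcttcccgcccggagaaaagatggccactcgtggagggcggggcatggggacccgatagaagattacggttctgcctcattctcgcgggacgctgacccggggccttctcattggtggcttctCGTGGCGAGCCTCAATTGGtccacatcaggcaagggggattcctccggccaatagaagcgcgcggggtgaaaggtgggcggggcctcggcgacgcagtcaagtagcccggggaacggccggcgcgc
The element starts at base 186 in Hspa5 as spelled, and at base 89 in Calr and base 125 in Creld2 as its reverse complement. Windows of Pdia4 and Sdf2l1, also called lower, hold no such letters, which says nothing about the factors that act there.

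**Figure D4:**
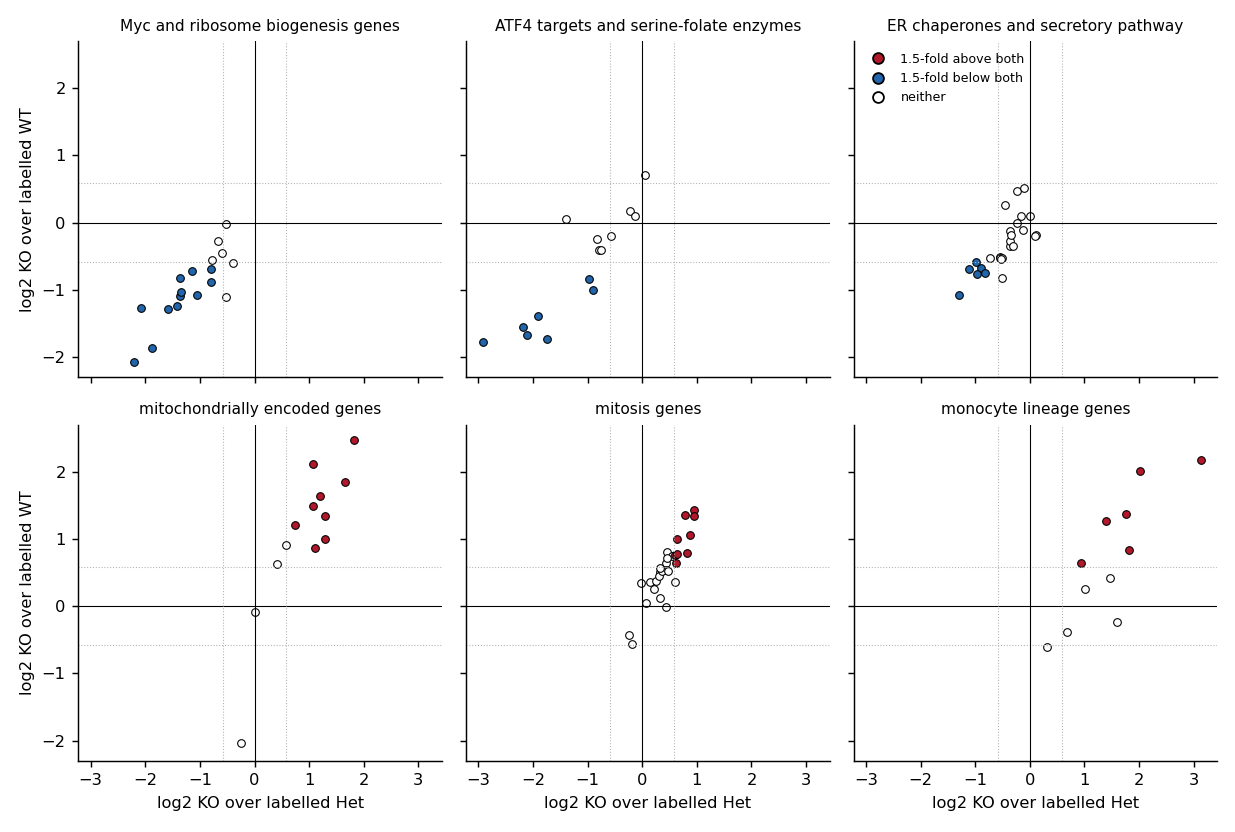
Log2 ratio of KO over labelled Het (x axis) and over labelled WT (y axis) for each gene of 6 lists, with 1 point per gene, dotted lines at 1.5-fold, red for genes 1.5-fold above both libraries and blue for genes 1.5-fold below both. All 18 Myc and ribosome biogenesis genes lie below 0 on both axes, and 11 of 13 mitochondrially encoded genes above 0 on both.

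Transcripts of the mitochondrial genome were higher in KO members. Of 13 genes 9 were higher by the rule, against 4.91% of all genes, and 0 were lower, with medians of 1.07 and 1.21. mt-Nd1, a complex I subunit, was at 446 CPM in KO, 126 in labelled Het and 80.5 in labelled WT, and mt-Atp6, an ATP synthase subunit, at 748, 236 and 208 CPM. Of the cytochrome oxidase subunits, mt-Co1 was at 608, 248 and 241 CPM and mt-Co2 was at 1004, 481 and 356 CPM. 2 further subunits of complex I, picked after their values were seen, were not higher: mt-Nd5 was at 196, 196 and 208 CPM and mt-Nd6, the gene of the other strand, at 48.5, 57.4 and 199 CPM. Medians were 1.45 and 1.22 in monocyte-marked members, 0.99 and 1.30 in later granule-stage members and 0.74 and 0.81 in the class of neither mark. Outside the set they were 0.81 and 1.05 in granule-stage cells and 1.58 and 1.5 in barred cells.

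Nuclear genes of oxidative phosphorylation differed less. Of 29 genes 2 were higher, Ndufa4 at 169 CPM in KO, 106 in labelled Het and 92.5 in labelled WT, and Atp5o at 307, 194 and 151 CPM, and 0 were lower, with medians of 0.26 and 0.21. Ndufs5, an accessory subunit of complex I on chromosome 4 that was not in that list, was at 3.66 CPM in KO, 61.8 in labelled Het and 56.7 in labelled WT, 16.7-fold and 15.4-fold lower in KO. It was as low in granule-stage cells, at 1.72, 35.4 and 37.3 CPM. Of 21 genes of glycolysis and hypoxia 4 were lower, against 8.06% of all genes, and 0 higher. The lower ones included Ldha, which makes lactate, at 391, 642 and 690 CPM and the glucose transporter Slc2a1 at 51.9, 83.3 and 89.3 CPM.

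Peroxisomal genes gave few calls. Of 10 genes of peroxisome biogenesis other than Pex2, 0 were called in either direction, with medians of -0.05 and -0.18 and the first at 0.01 with TMM scaling. Pex5, the receptor that carries enzymes into peroxisomes, was at 66.7 CPM in KO, 71.9 in labelled Het and 73.3 in labelled WT. Of 30 peroxisomal enzymes and transporters 2 were higher and 1 was lower, with medians of 0.23 and 0.12. Abcd2, which carries very long chain fatty acids into peroxisomes, was at 196 CPM in KO, 125 in labelled Het and 120 in labelled WT. Idh1, the NADP-dependent isocitrate dehydrogenase of cytosol and peroxisomes, was at 92.7, 46.1 and 41.5 CPM. Pecr, a reductase of fatty acid chain elongation, was lower at 12.3, 24.8 and 24.7 CPM.

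Of 22 glutathione and antioxidant genes, 4 were higher in KO and 1 was lower. Sod1, the copper-zinc superoxide dismutase, was at 237 CPM in KO, 103 in labelled Het and 117 in labelled WT, and Prdx1, a peroxiredoxin, at 95, 39.0 and 44.2 CPM. Both were highest in KO in each class. Gpx3, the secreted glutathione peroxidase, was at 321, 207 and 141 CPM, and Prdx4, the peroxiredoxin of the ER, at 59.0, 18.6 and 23.3 CPM. Gstp3, a pi-class glutathione transferase on chromosome 19, was at 1.11 CPM in KO, 92.2 in labelled Het and 98.7 in labelled WT, 80.6-fold and 86.3-fold lower in KO. Its counts are uncertain where near-identical copies share probes. Granule-stage cells had 2.81, 136 and 158 CPM of Gstp3, so it was low in KO there too.

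The leading genes by the smaller of the 2 ratios repeated several of these lists. Among the first 15 higher in KO were Fn1, Tgfbi, mt-Nd1, mt-Atp6 and Chil3, given above, and Pla2g7, a lipase that inactivates the mediator platelet-activating factor, at 66.7 CPM in KO, 15.4 in labelled Het and 8.45 in labelled WT. Glul, which makes glutamine, was at 269, 90.2 and 51.6 CPM and was highest in KO in each class. Stil, a centriole assembly protein, was at 52.5, 18.6 and 10.5 CPM. Il1f9, an interleukin 36 cytokine, was at 82.4, 27.6 and 12 CPM. Tpm4, a tropomyosin, was at 62.2, 21.3 and 22.3 CPM, and without monocyte-marked members its log2 ratios were -0.31 and -0.96. Mndal, Hist1h2be, Glipr1, Ap1s2 and Grap completed the 15, at 45.4 to 154 CPM in KO, 10.3 to 52.4 in labelled Het and 13.1 to 43.1 in labelled WT.

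Among the first 15 lower in KO, after Pex2, Gstp3 and Ndufs5, came Gvin1, a very large GTPase induced by interferon, at 3.07 CPM in KO, 29.7 in labelled Het and 31.8 in labelled WT. H1fx, a linker histone, was at 12.4, 71.6 and 69.6 CPM. Dusp2, a phosphatase of MAP kinases, was at 5.16, 23.4 and 40.04 CPM. Gabbr1, a receptor subunit for the transmitter GABA, was at 27.1, 113 and 192 CPM. Epx was at 8.17, 48.0 and 35.1 CPM and was almost wholly in the class of neither mark, at 54.0, 175 and 150 CPM. Only 5 KO, 7 labelled Het and 5 labelled WT members had an Epx UMI, and 1, 2 and 2 had 1000 CPM or more, so this call rests on few cells. Prg2, the eosinophil major basic protein, was also lower, at 47.8, 175 and 137 CPM over all members, with 1, 2 and 1 members at 1000 CPM or more. Epx and Prg2 were 2 of the 3 eosinophil genes tested. Ydjc, Tmem119 and Tspan4 completed the 15, at 5.82 to 10.4 CPM in KO, 28 to 40.04 in labelled Het and 35.6 to 41.5 in labelled WT. Gstp3, Ndufs5, Gvin1, H1fx and Ccnd2 were lower in KO in all 3 classes.

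**Figure D5:**
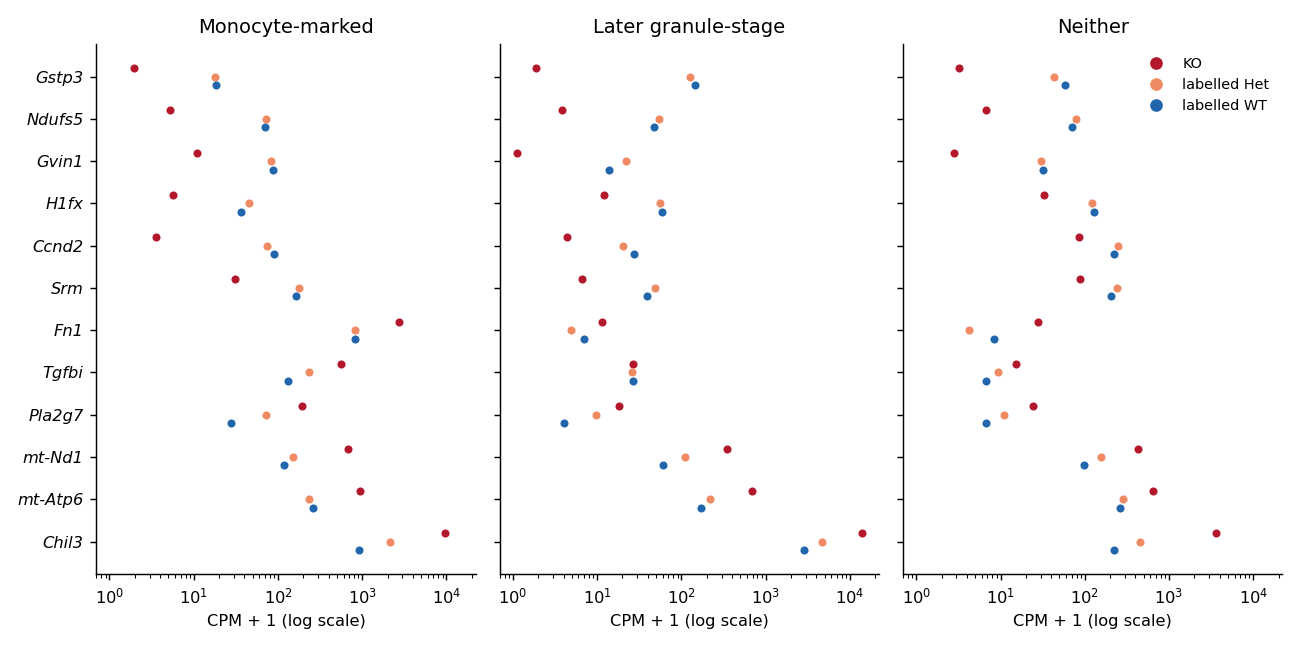
Level of 12 of the leading genes in CPM plus 1 on a log axis in each class of members, with 1 point per library. Gstp3, Ndufs5, Gvin1, H1fx, Ccnd2 and Srm are lowest in KO in all 3 panels, while Fn1 reaches 2762 CPM in the monocyte-marked panel and 26.8 CPM or less in the other panels.

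The remaining lists gave few calls. Of 7 S100 genes 1 was higher, S100a10, an annexin partner, at 345 CPM in KO, 93.6 in labelled Het and 129 in labelled WT, and its log2 ratios were -1.31 and -1.23 without monocyte-marked members. Of 9 immediate early genes 3 were lower, against 8.06% of all genes, and all 3 were subunits of the AP-1 factor. Jun was at 13.3, 21.8 and 27.6 CPM, Junb at 28.9, 59.9 and 48.6 CPM and Jund at 55.4, 88.5 and 133 CPM. Without monocyte-marked members the log2 ratio of Jun against labelled WT was 0.045. Of 4 interferon-stimulated genes Ifitm3, an antiviral membrane protein, was higher at 253, 91.8 and 49.2 CPM and Bst2, which tethers viruses, lower at 29.8, 54.7 and 53.6 CPM. Of 23 lysosomal genes 3 were higher, the lysosomal membrane proteins Lamp1 at 296, 167 and 179 CPM, Lamp2 at 416, 247 and 207 CPM and the protease Ctsl at 45.2, 25.3 and 22.7 CPM. Of 8 p53 targets 1 was higher, Trp53inp1, a stress-induced nuclear protein, at 68.7, 16.1 and 27.3 CPM.

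Thbs1, an adhesive matrix protein, was the lower gene among 14 chemokine receptor and adhesion genes, at 84.9 CPM in KO, 182 in labelled Het and 144 in labelled WT. Its direction depended on the class: in later granule-stage members it was at 68.6, 249 and 207 CPM, and in monocyte-marked members at 158, 88.9 and 96.7 CPM. Cxcr4, the chemokine receptor that holds precursors in marrow, was higher at 564, 370 and 338 CPM. Of 9 protease inhibitors Stfa2, a stefin, was higher at 611, 402 and 386 CPM and Spint2, an inhibitor of serine proteases, lower at 126, 195 and 192 CPM. Of 13 heme and iron genes Fech, ferrochelatase, was higher at 79.4, 44.6 and 38.9 CPM and Alad, an earlier enzyme of the pathway, lower at 22.5, 35.1 and 39.9 CPM. Of 7 glucocorticoid-induced genes 2 were lower, Cebpd, given above, and Zbtb16, a zinc finger repressor, at 13.3, 21.0 and 29.5 CPM. The other 5 lay above both libraries without a call, against 39.4% of all genes above both, and the list medians were 0.33 and 0.55. Of 17 growth factor and cytokine receptors, Il1r2 was higher and Kit lower, both given above, and of 13 cholesterol synthesis genes 0 were called.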

How the data were processed

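Probe-based single-cell RNA libraries of viable CD45-positive liver cells were analysed, 1 per genotype. The authors deposited raw UMI counts for 19059 genes in each barcode, made with Cell Ranger 7.0.0 on mm10 per the submitters' processing notes, without normalisation. The sources used here name no probe set version and no further barcode filter.

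Here the rule was applied to every barcode, and counts were summed over the members of each library and divided by the sum of all genes (CPM). Genes with a mean of at least 20 CPM and 30 UMIs in all were compared, with exact Poisson intervals of levels, exact conditional binomial intervals of ratios and Clopper-Pearson intervals of shares, all at 95%. Log2 ratios used 0.5 added counts. All calls are descriptions, since 1 library per genotype gives no test. The rule of size was checked on simulated counts. Doublets were called with Scrublet in scanpy 1.11.5 (seed 0) and kept. Barcodes were thinned to 5000 UMIs for shares with fixed random seeds, which left out 0 KO, 4 labelled Het and 9 labelled WT members. The same step left out 320 KO, 307 labelled Het and 1122 labelled WT B-lineage-like barcodes. B-lineage-like barcodes had Cd79a plus Cd79b at 500 CPM or more. For scaling, edgeR 4.0.16 gave TMM factors and DESeq2 1.42.0 gave median-of-ratios factors, both in R 4.3.3, and other steps used Python 3.11.15 with numpy 2.4.6, scipy 1.17.1, pandas 2.3.3 and matplotlib 3.10.9. Promoters were read from a RefSeq table.

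The members and gene lists were chosen with earlier results of these data known. Genes named are the first 15 called in each direction by the smaller ratio, the genes of the rule and the markers, Pex2, Y-linked genes, and for each list the genes called or else the 2 of highest level, and the 15 genes highest in members over other barcodes, with a few more said to be picked after their values were seen. The 5000 CPM cut of Ltf plus Camp for the classes was set after the data were seen. The reason was the median Camp of 919 CPM in B-lineage-like barcodes of the library labelled WT, near the planned 1000 CPM. A named gene's result is not reported here.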

Additional observations from a re-analysis of the deposited data

How the results depend on the processing

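No paired analysis was possible because each genotype has 1 library, and no result comes from a test. Without replicates, differences between animals, sexes, preparations and genotypes cannot be told apart, and depth limits single members most in the library labelled WT. The share ratio was 0.987 of labelled Het and 1.18 of labelled WT with a threshold of 2500 CPM, and 0.550 and 0.617 with 10000 CPM. The 345 higher and 567 lower genes became 520 and 945 with a mean of at least 5 CPM, 196 and 277 with 50 CPM, and 66 and 148 with a 2-fold rule. Without members at 1000 CPM or more of Ltf plus Camp they were 587 and 878, without those at 5000 CPM or more 601 were higher, and with the same mix of bands, an alternative added after seeing the data, 315 were lower. Other counts stayed within 1.5 times the reported ones under every alternative run.

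Of the list medians, 14 moved by more than 0.585 on the log2 scale and 1126 did not. Beside the monocyte lineage genes, these were S100 genes against labelled WT (1.13 and 1.00 without members at 1000 or 5000 CPM or more of Ltf plus Camp), p53 targets against labelled WT (0.20 without those at 1000 CPM or more), interferon-stimulated genes against labelled WT (1.04 over the 2 genes at 50 CPM), stem and progenitor genes against labelled WT (0.19 with the same mix of bands) and late neutrophil genes (-0.37 and -0.60 in the class of neither mark). The monocyte lineage median against labelled Het was 0.79 at a threshold of 10000 CPM, 0.60 without the Cd34 and Irf8 clause, 0.84 after thinning before the rule, 0.21 over the 3 genes with enough UMIs in the class of neither mark (0.74 over the same 11 genes), 0.19 with the same mix of classes and 0.041 over 4 genes without monocyte-marked members, where it was 0.021 against labelled WT. Of the named genes, 29 log2 ratios turned round, and the cause was not tested. Without monocyte-marked members these were Cd48 (-0.068 against labelled Het and -0.075 against labelled WT), S100a10 (-1.31 and -1.23), Tpm4 (-0.31 and -0.96), Mpeg1 (-0.14 and -0.19), Ly86 (-0.28 against labelled Het), Ctsl (-0.13 against labelled Het) and Jun (0.045 against labelled WT). Without members at 1000 CPM or more of Ltf plus Camp, Thbs1 was at 0.87 and 1.65 and Stfa2 at -1.09 and -1.08, and without those at 5000 CPM or more they were at 0.59 and 1.20 and at -1.29 and -1.81. In the class of neither mark S100a10 was at -0.75 and -0.42, Stfa2 at -1.02 and -1.56, Ly86 at -0.21 against labelled Het and Tpm4 at -1.29 against labelled WT. Against labelled Het, the same mix of bands gave 0.014 for Gfi1 and -0.027 for Stfa2, the same mix of classes -0.063 for Ctsl, and a threshold of 2500 CPM 0.058 for Mmp9.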
